A study of Mus musculus with 59 samples.

Results

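Potassium channel genes were followed through the prefrontal cortex of young mice that differed in the gene Ank2 and in a drug given through the mother's milk. Members were all protein-coding genes whose symbol begins with Kcn followed by letters and a number. This gave 93 genes of the 51456 gene identifiers in the deposited table. Of these, 81 had a mean normalized value of at least 10 over all libraries and were tested, among 16919 genes tested in all. The other 12, Kcna7, Kcna10, Kcnv2, Kcnj1, Kcnj15, Kcnk7, Kcnk16, Kcnk18, Kcnmb3, Kcne1, Kcne2 and Kcne3, are listed and were not tested. The mice were C57BL/6J, with 30 libraries from animals heterozygous for Ank2 (HT) and 29 from wild-type ones (WT), and messenger RNA was sequenced at postnatal day 25. From day 3 to day 24 the pups had received vehicle, fluoxetine, a serotonin reuptake inhibitor, or lithium, a mood stabilizer. Each of the 6 genotype and drug groups held 10 libraries, 5 female and 5 male, except WT fluoxetine with 5 female and 4 male. The labels give neither the kind of Ank2 alteration, nor the doses, nor which pups shared a mother, so that p-values measure the spread between libraries. In tissue RNA, fewer cells of a type and less RNA per cell cannot be told apart.

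Potassium channels let potassium ions leave or enter a cell and so set its resting potential, end its action potentials and pace its firing. The pore-forming proteins fall into voltage-gated channels, silent modifier subunits that work only when joined to voltage-gated partners, channels opened by calcium or sodium, inward rectifiers, and two-pore leak channels. Auxiliary subunits carry no pore and change where a channel sits and how it opens. In the cortex, Kv3 channels are known from fast-firing interneurons, Kv1 and Kv7 channels from axons and their initial segment, and Kv2 and Kv4 channels from cell bodies and dendrites.

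The selectivity filter, the stretch of the pore that picks potassium over sodium, is what the pore-forming members have in common. It can be seen in their coding sequences as 4 codons of the form NTN, GGN, TAN or TTN, and GGN. The stretches below are shown because they come from members that the results turn on, 1 or more from each pore-forming class, with the 4 filter codons in capitals and 5 codons on either side, taken from GENCODE M21 transcripts of GRCm38 and read 5′ to 3′.
Kcna1, voltage-gated, codons 373 to 376: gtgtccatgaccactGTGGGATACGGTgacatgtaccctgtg
Kcnc1, voltage-gated, codons 401 to 404: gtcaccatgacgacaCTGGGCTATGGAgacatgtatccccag
Kcnh2, voltage-gated, codons 627 to 630: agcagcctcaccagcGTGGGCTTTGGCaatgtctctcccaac
Kcng4, modifier, codons 417 to 420: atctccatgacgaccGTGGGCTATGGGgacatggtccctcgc
Kcnma1, calcium-activated, codons 353 to 356: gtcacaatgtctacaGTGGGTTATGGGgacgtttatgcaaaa
Kcnj6, inward rectifier, codons 137 to 140: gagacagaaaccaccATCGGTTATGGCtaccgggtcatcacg
Kcnk6, two-pore, codons 107 to 110: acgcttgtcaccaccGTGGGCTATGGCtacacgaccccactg
In frame, the pattern of 4 codons was found in 75 of the 93 members. All 30 voltage-gated members, 10 of 10 modifiers, 8 of 8 ion-activated channels, 15 of 15 inward rectifiers and 12 of 14 two-pore channels held it. It occurred at least 2 times in 10 of the two-pore channels, whose proteins have a pair of pore domains. None of the 16 auxiliary members held it, and of 21477 other protein-coding genes 1061 did (4.94%). The two-pore members without it were Kcnk1 and Kcnk7. A match describes these letters only.

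Each library had a value above 0 for 22566 to 23745 gene identifiers, and the 93 members made up 0.516% to 0.639% of its summed values. Ank2 was at 22813 or less in every HT library and at 23284 or more in every WT library, as labelled. HT Fluoxetine female 2 stood apart: 44 of the 81 tested members lay below and 14 above the range of the other 9 libraries of its group, while the other 58 libraries had 2 to 49 members outside their group's range (median 11). The share of all tested genes outside these ranges is not given here, so the counts describe the libraries and not a trait of the members. In HT Fluoxetine female 2, Ttr, the main transcript of the choroid plexus, was at 72657, against at most 126 elsewhere, and Prox1, a marker of dentate granule cells, at 4900 against at most 470. WT Fluoxetine male 1, WT Vehicle female 1 and WT Lithium male 1 followed with 49, 47 and 46 members outside, and each had its group's highest level of 6 olfactory bulb markers (2.42, 2.59 and 2.31 above the mean on the log2 scale). Several results that move without these libraries are given with both values, and ranges of the counts over single removals are in the last section.

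Per kilobase of transcript, voltage-gated channels held 35.3% of the summed level of all members, auxiliary subunits 23.8%, inward rectifiers 17.1%, modifiers 8.09%, two-pore channels 7.99% and ion-activated channels 7.68%. Among the highest levels per kilobase were those of Kcnab2, the β2 subunit that binds Kv1 channels (2496), the inward rectifier Kcnj4 (1849) and Kcnip3, a calcium-binding partner of Kv4 channels (1561). Also high were Kcnf1 among modifiers (1323), Kcnk1 among two-pore channels (1261) and Kcnma1, the large-conductance BK channel opened by voltage and calcium, among ion-activated channels (1012). Other high levels were those of Kcnh3 (1376), Kcnv1 (865), Kcnt1 (881), Kcnj9 (1324) and Kcnk9 (600). The Kv7 subfamily, with 5 members, held a summed level per kilobase of 3111, the 8 Kv10 to Kv12 members 2988, the 4 Kv3 members 2598 and the 8 Kv1 members 2398.

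**Figure D1:**
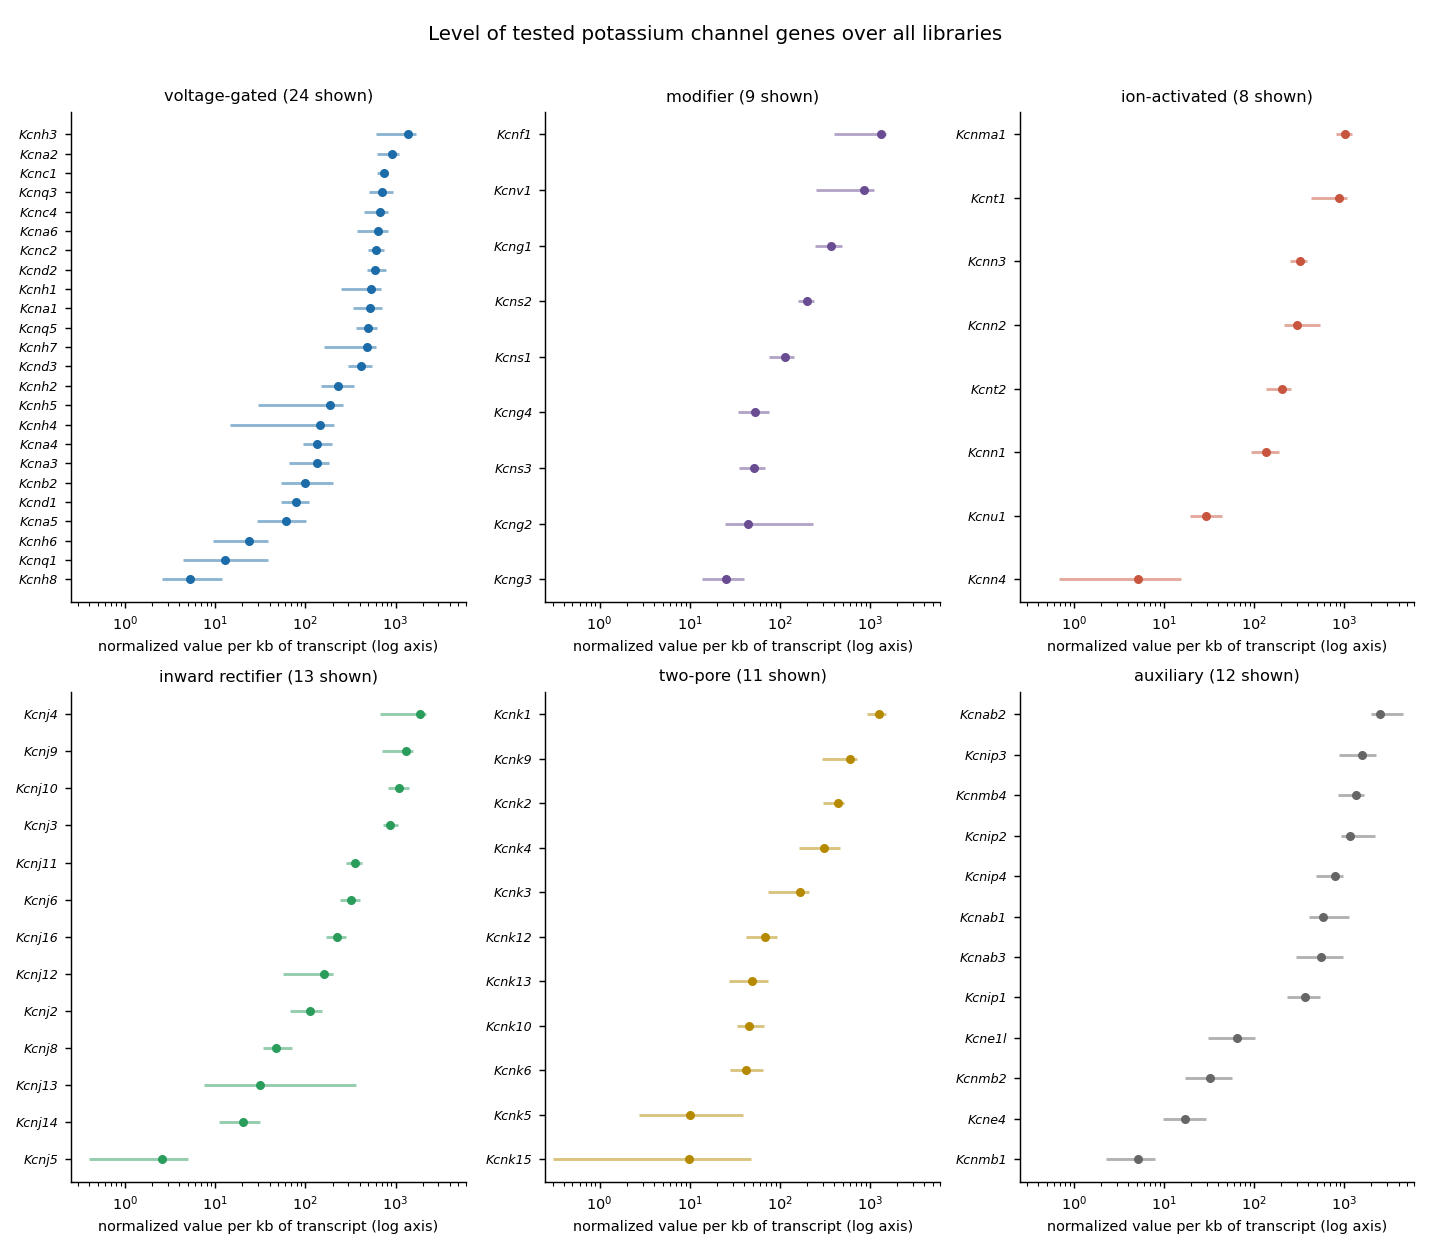
Level of tested potassium channel genes, in 6 panels by class. The x axis is the normalized value per kilobase of transcript on a log scale; each point is the mean over 59 libraries and each line runs from the lowest to the highest library (the lowest value of Kcnk15, 0, is drawn at 0.3). The highest point is that of Kcnab2 at 2496, and the longest line in the voltage-gated panel is that of Kcnh4.

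Heterozygosity for Ank2 came with no called change in any potassium channel gene. With limma over all 16919 genes at an adjusted p under 0.05, 0 of 81 members were called between HT and WT in vehicle, where 0.00591% of all genes were. The same count of 0 was found in fluoxetine (0.0118% of all genes called), in lithium (0.55%) and over the 3 drug states together (0.248%, with 0.0946% higher). At an unadjusted p under 0.05 there were 2 members in vehicle, 15 in fluoxetine, 17 in lithium and 21 over all drug states, or 2.47%, 18.5%, 21.0% and 25.9% of members against 3.42%, 15.7%, 16.3% and 16% of all genes. The median SE of a member's log2 change between genotypes was 0.09 within 1 drug state and 0.05 over all of them.

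Closest to the threshold over all drug states was Kcnh2, the ERG channel that also repolarizes the heart (log2 change -0.20, SE 0.06, adjusted p = 0.0863). Its value in WT vehicle was lowest 837, median 964 and highest 1479, and in HT vehicle lowest 669, median 879 and highest 1047. The groups overlapped widely, with the HT libraries shifted to the lower end. Kcnk15, a two-pore gene of low level (mean 18.6), followed at -1.10 (SE 0.35, adjusted p = 0.11), and Kcnab3, a Kv1 β subunit, at -0.20 (SE 0.07, adjusted p = 0.11). Of 6 olfactory bulb markers none was called either, their median log2 change between genotypes was -1.003, and the list's level spanned -1.04 to 2.59 in WT vehicle, -2.67 to 2.10 in HT vehicle, -2.76 to 2.42 in WT fluoxetine, -3.68 to 1.09 in HT fluoxetine, -1.76 to 2.31 in WT lithium and -3.14 to 0.37 in HT lithium. The marker S100a5 was at 0 in at least 1 HT library of every drug and reached 474 in WT vehicle. The part of these markers in the genotype values was not tested. Without the 4 libraries with the most members outside their group (the 4 named above), Kcnh2 had a log2 change of -0.12 (adjusted p = 0.32), Kcnk15 -0.74 (0.39) and Kcnab3 -0.10 (0.44). Without WT Fluoxetine male 4, by contrast, 4 members were called, among them Kcnh2 (-0.22, adjusted p = 0.034), Kcnk15 (-1.27, adjusted p = 0.037) and Kcnab3 (-0.23, adjusted p = 0.048). Without WT Lithium male 3 the count was 2 (Kcnh2 and Kcnk15), and without HT Fluoxetine male 5 it was 1 (Kcnh2). On the olfactory bulb list, WT Fluoxetine male 4 (-2.76) and WT Lithium male 3 (-1.76) were the lowest of their groups. HT Fluoxetine male 5 (1.09) was the highest of its group. The part of these levels in the added calls was not tested.

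With fluoxetine, 25 of the 26 calls made over both genotypes were of higher values, and all were small. In WT, 14 of 81 members passed, all of them higher (17.3%, against 14.8% of all genes called in either direction, 7% higher and 7.78% lower). In HT, 12 passed, 11 higher and 1 lower (14.8%, against 14% of all genes, 6.63% higher and 7.38% lower). The median log2 change of all tested members was 0.05 in WT and 0.01 in HT, against -0.00 for all genes in both. The share called in either direction was thus near that of all genes. No called member changed more than 1.5-fold. Without HT Fluoxetine female 2 the counts were 20 in WT and 16 in HT, and without WT Vehicle female 1 the WT count was 11. Kcna1, Kcnq5, Kcng4, Kcnma1 and Kcnj6 were among those called in both genotypes; the 2 comparisons share no library.

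**Figure D2:**
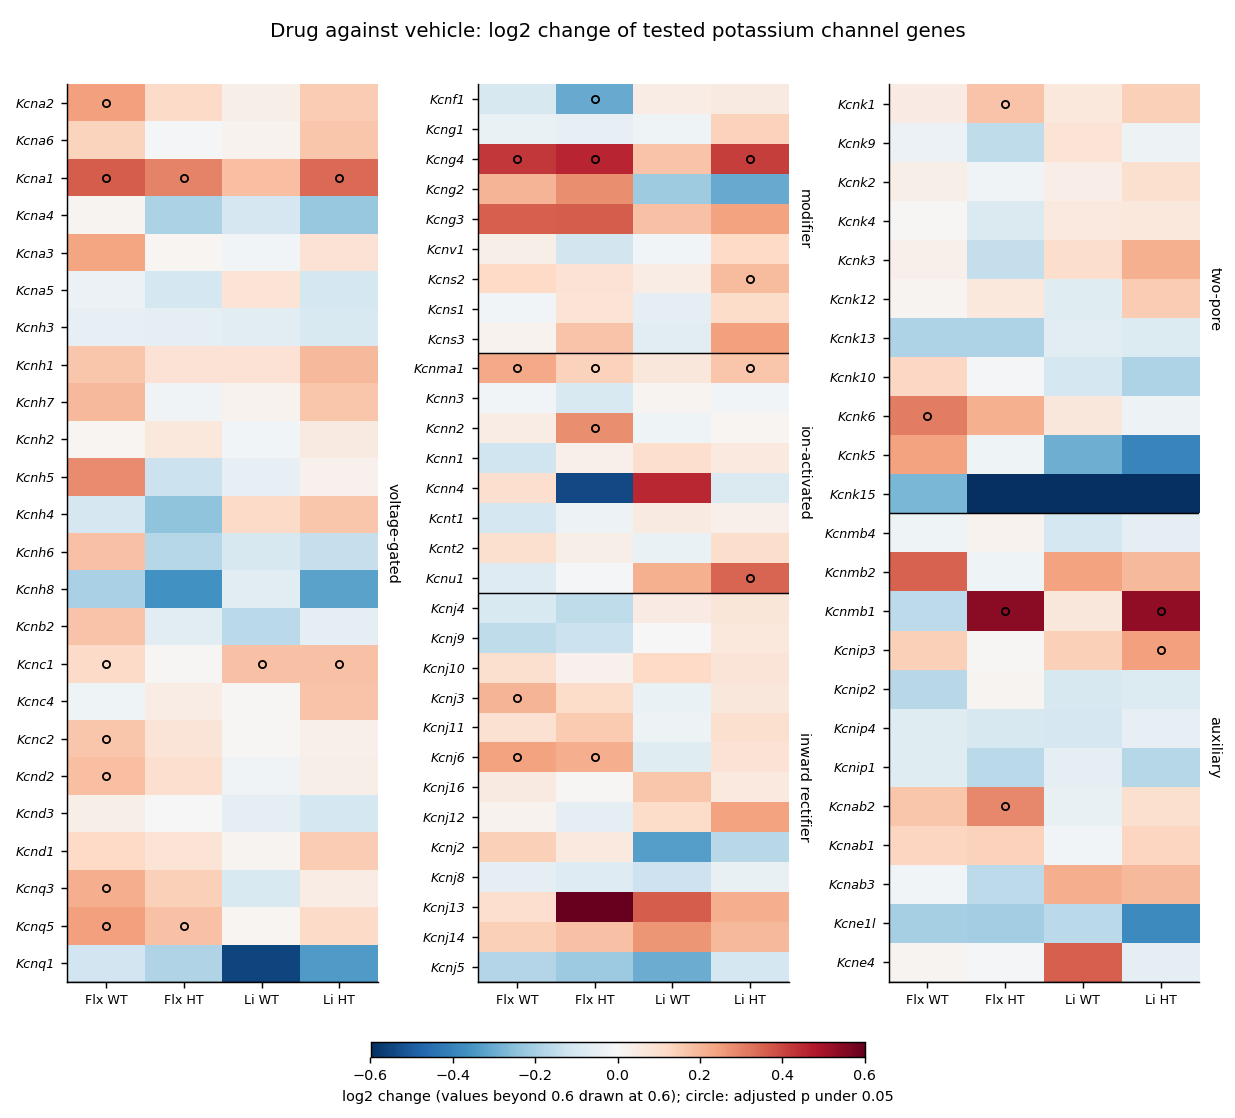
Log2 change of tested members (rows, by class and subfamily) in 4 comparisons (columns): fluoxetine (Flx) or lithium (Li) against vehicle in WT and HT. Colour gives the log2 change, red higher and blue lower, drawn at 0.6 where it is beyond 0.6, and a circle marks an adjusted p under 0.05. Circles are most frequent for voltage-gated genes in WT fluoxetine, and Kcnc1 alone is circled in both lithium columns. Values are as fitted, with no correction for transcript length.

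Among the voltage-gated channels, 9 of 28 rose with fluoxetine in WT and 4 of 28 in HT, and none fell. Of all genes, 7% were called higher in WT and 6.63% in HT. This class had the highest median transcript length of any class (4919 nucleotides). With each library's trend on length and GC content removed, as described below, only Kcna1 of the 9 stayed called in WT. Kcna1, the Kv1 channel of axons whose human counterpart is mutated in episodic ataxia (ENSMUSG00000047976, chromosome 6, 126640397 to 126646384, GRCm38), ranged in WT vehicle libraries from 1356 to 2103 (median 1856) and in WT fluoxetine libraries from 1881 to 2860 (median 2334). In HT it went from 1473 to 2181 (median 1876) with vehicle and from 1883 to 2835 (median 2218) with fluoxetine. In both genotypes 6 fluoxetine libraries lay above every vehicle library, and all of them lay above the vehicle median. Its log2 change was 0.36 in WT (SE 0.09, 1.29-fold, adjusted p = 0.0026) and 0.30 in HT (SE 0.09, 1.23-fold, adjusted p = 0.013). Kcna2, which forms channels with Kcna1, showed 8809 to 10580 (median 9972) in WT vehicle and 11130 to 12707 (median 11664) in WT fluoxetine. No library of one group reached the other (log2 change 0.24, SE 0.05, adjusted p = 0.00087).

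With fluoxetine in HT, Kcna2 was not called (log2 change 0.11, SE 0.05, adjusted p = 0.135), and HT Fluoxetine female 2 held its lowest value in that group, 7153. Among the Kv3 genes, whose channels allow rapid repeated firing, Kcnc1 (0.11, SE 0.04, adjusted p = 0.023) and Kcnc2 (0.17, SE 0.05, adjusted p = 0.018) rose in WT. With fluoxetine in HT, Kcnc1 showed a log2 change of 0.01 (SE 0.03, adjusted p = 0.90) and Kcnc2 one of 0.08 (SE 0.05, adjusted p = 0.302), and neither was called.

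Among the Kv7 genes, whose channels carry the M-current that restrains repetitive firing, Kcnq5 rose in both genotypes, by 0.25 in WT (SE 0.06, adjusted p = 0.0043) and by 0.17 in HT (SE 0.06, adjusted p = 0.046). Kcnq3 rose in WT from 5984 to 9179 (median 8248) to 7739 to 11061 (median 9256), a log2 change of 0.22 (SE 0.06, adjusted p = 0.015). Kcnd2, the Kv4 channel that shapes dendritic excitability, rose in WT (0.18, SE 0.06, adjusted p = 0.022). None of the 8 Kv10 to Kv12 genes was called in either genotype, and their median log2 change was 0.09 in WT and -0.09 in HT.

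Among the modifiers, Kcng4, a silent subunit that joins Kv2 channels (ENSMUSG00000045246, chromosome 8, 119623854 to 119635680), had the largest rise of the 14 members in WT. It lay between 139 and 229 (median 168) in WT vehicle and between 189 and 290 (median 230) in WT fluoxetine, and between 132 and 205 (median 164) in HT vehicle and between 191 and 284 (median 221) in HT fluoxetine. The log2 change was 0.42 in WT (SE 0.09, 1.34-fold, adjusted p = 0.00053) and 0.46 in HT (SE 0.09, 1.37-fold, adjusted p = 0.00016), and every fluoxetine library was above the vehicle median of its genotype. Kcnf1, the modifier of highest level, was the 1 member lower with fluoxetine (HT, log2 change -0.30, SE 0.10, adjusted p = 0.031). Its HT vehicle libraries ran from 5622 to 7165 (median 6332) and its HT fluoxetine libraries from 1921 to 6226 (median 5949), the 1921 in HT Fluoxetine female 2. Without that library the change was -0.15 (adjusted p = 0.02), without 4 libraries that stood apart (HT Fluoxetine female 2 and 4, HT Vehicle female 1 and HT Vehicle male 2) it was -0.10 (adjusted p = 0.16), and with the compared groups fitted alone it had an adjusted p of 0.243. The call was also lost without HT Fluoxetine male 4 (-0.27, adjusted p = 0.062) and without HT Vehicle male 1 (-0.29, adjusted p = 0.0502). The set of 4 libraries was chosen with earlier results of these data known, not from the potassium channel genes. In the order given, they had 58, 8, 36 and 17 members outside their group's range, so not all of them stood apart in the members.

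Kcnma1, the BK channel (ENSMUSG00000063142, chromosome 14, 23289431 to 24014491), was the called ion-activated channel in both genotypes. In WT it went from 9927 to 12508 (median 11365) with vehicle to 11898 to 14681 (median 13314) with fluoxetine (log2 change 0.23, SE 0.05, adjusted p = 0.00105). In HT it went from 9690 to 13938 (median 11332) to 9730 to 14691 (median 12792), with only 2 fluoxetine libraries above all vehicle libraries (log2 change 0.14, SE 0.05, adjusted p = 0.046), and the HT call was lost in 13 of 59 removals of 1 library. Kcnn2, an SK channel of the afterhyperpolarization that follows a spike, rose in HT (0.28, SE 0.07, adjusted p = 0.007). The HT fluoxetine libraries ran from 1124 to 2000 (median 1220), and 9 of 10 lay above every HT vehicle library, the highest of which was at 1175. The 2000 was that of HT Fluoxetine female 2, without which the change was 0.21 (adjusted p = 0.023), and without the 4 libraries that stood apart it was 0.14 (adjusted p = 0.18).

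The called inward rectifiers, Kcnj6 and Kcnj3, belong to the G protein-gated channels, which mediate slow inhibition by GABA and serotonin receptors. Kcnj6 (GIRK2) rose in both genotypes, from 880 to 1331 (median 1130) to 1104 to 1447 (median 1343) in WT and from 989 to 1204 (median 1114) to 1137 to 1455 (median 1281) in HT. The log2 change was 0.24 in WT (SE 0.06, adjusted p = 0.0027) and 0.22 in HT (SE 0.06, adjusted p = 0.0062), and 8 of 10 HT fluoxetine libraries lay above all HT vehicle libraries. Kcnj3 (GIRK1), its usual partner, rose in WT (0.20, SE 0.05, adjusted p = 0.0018), from 3824 to 4859 with vehicle to 4477 to 5524 with fluoxetine, and 8 of 9 fluoxetine libraries lay above every vehicle library. The other G protein-gated genes went the other way and were not called. Kcnj9 was at -0.15 in WT (SE 0.08, adjusted p = 0.188) and -0.13 in HT (SE 0.07, adjusted p = 0.272). Kcnj5 was at -0.17 (SE 0.32) and -0.22 (SE 0.31). Of the 11 tested two-pore leak channels 1 rose in each genotype, Kcnk6 in WT (0.31, SE 0.10, adjusted p = 0.035) and Kcnk1 in HT (0.17, SE 0.06, adjusted p = 0.036), and each call was lost in 10 of 59 removals of 1 library.

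No auxiliary subunit of 12 was called in WT, and 2 were in HT. Kcnab2 ran from 8005 to 9993 (median 9373) in HT vehicle and from 9412 to 17805 (median 10725) in HT fluoxetine, with 8 of 10 fluoxetine libraries above every vehicle library (log2 change 0.29, SE 0.06, adjusted p = 0.0011). The 17805 was in HT Fluoxetine female 2, without which the change was 0.21 (adjusted p = 0.0017). Kcnmb1, a BK β subunit best known from smooth muscle, went from 9.58 to 26.2 (median 16.3) to 19.5 to 31.98 (median 23.1) in HT (log2 change 0.54, SE 0.15, adjusted p = 0.0085). It was among the lowest tested members, its gene lies inside Kcnip1 on the opposite strand, and the strand setting of the counting is not given in the sources used here. Without the 4 libraries that stood apart Kcnmb1 was not called (0.40, adjusted p = 0.092). With vehicle, Kcnmb1 was lower in HT than in WT (log2 change -0.40, SE 0.15, unadjusted p = 0.0088 by limma), though not called. Against WT vehicle it was called neither in HT fluoxetine nor in HT lithium.

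**Figure D3:**
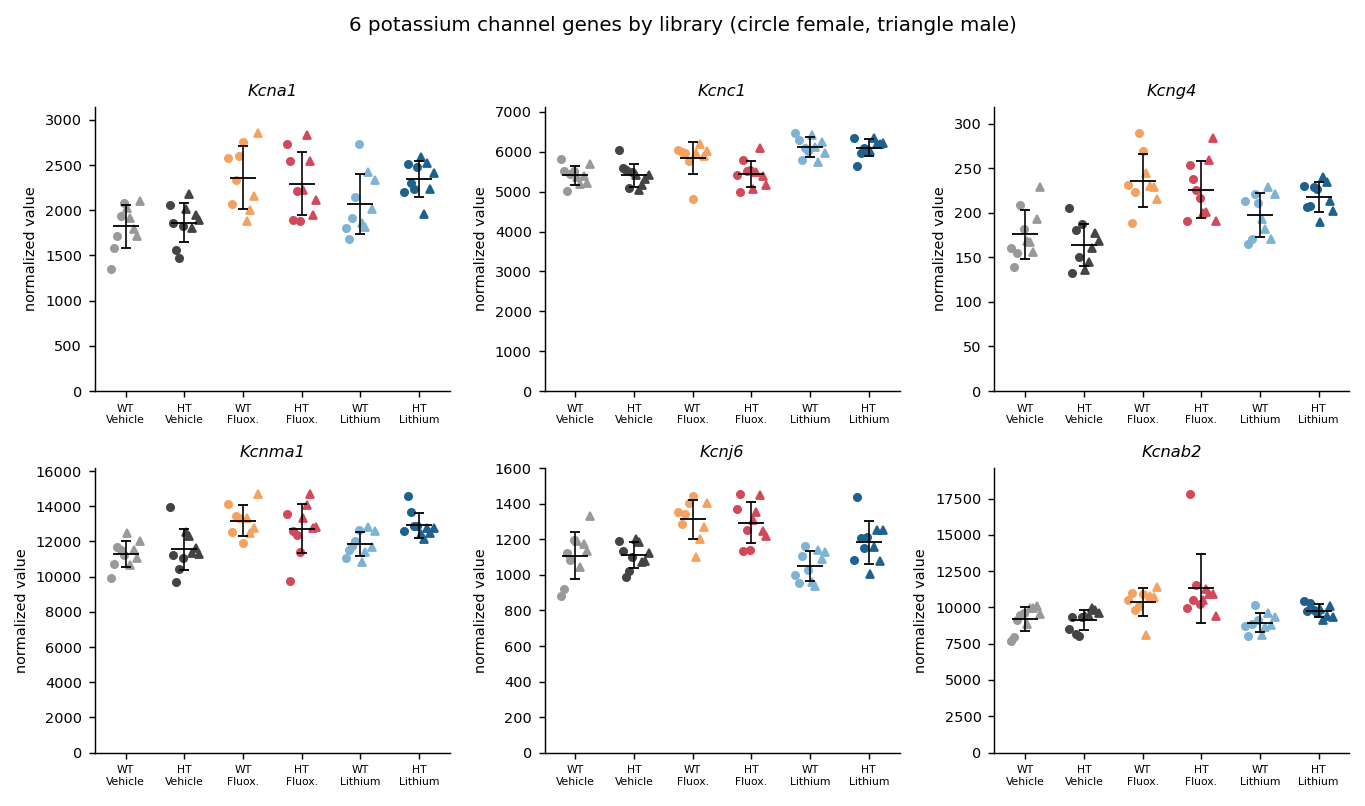
Normalized value of Kcna1, Kcnc1, Kcng4, Kcnma1, Kcnj6 and Kcnab2 in every library, by genotype and drug group (x axis), with y axes from 0. Circles are females, triangles males, and bars the mean with 1 SD. Fluoxetine libraries of Kcng4 (189 or more in WT) sit in the upper part of the vehicle range or above it, and the single high point of Kcnab2 is HT Fluoxetine female 2 at 17805.

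The tested members have long transcripts (median 3811 nucleotides, against 3055 for all tested genes), and long genes as a whole were higher in fluoxetine libraries. The slope of a library's log2 deviations on log2 transcript length lay between 0.027 and 0.097 in WT fluoxetine (median 0.051) and between -0.061 and -0.014 in WT vehicle (median -0.033), without overlap. In HT it lay between -0.013 and 0.068 with fluoxetine (median 0.034) and between -0.066 and 0.074 with vehicle (median -0.029). In WT the members' fluoxetine changes had Pearson's r = 0.33 with log2 length over 81 genes, which share their libraries and are not replicates. Members longer than 3811 nucleotides had a median log2 change of 0.12 and the others 0.02.

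When each library's trend on length and GC content was removed, 3 of the 14 WT calls held, Kcng4 (0.43, adjusted p = 0.0011), Kcna1 (0.33, adjusted p = 0.013) and Kcnj6 (0.22, adjusted p = 0.014). All 14 kept their direction. Kcna2 went to 0.12 (adjusted p = 0.21), Kcnma1 to 0.10 (0.27), Kcnq3 to 0.08 (0.49) and Kcnc1 to 0.05 (0.53). In HT, 9 of 12 calls held, and Kcnma1 (0.07, adjusted p = 0.35) and Kcnq5 (0.13, 0.16) were among those lost. When every library was instead scaled to the same total, Kcnc1 (adjusted p = 0.122) and Kcnd2 (0.0974) lost their calls in WT, as did Kcnk1 (0.0526), Kcnma1 (0.0966) and Kcnq5 (0.071) in HT.

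**Figure D4:**
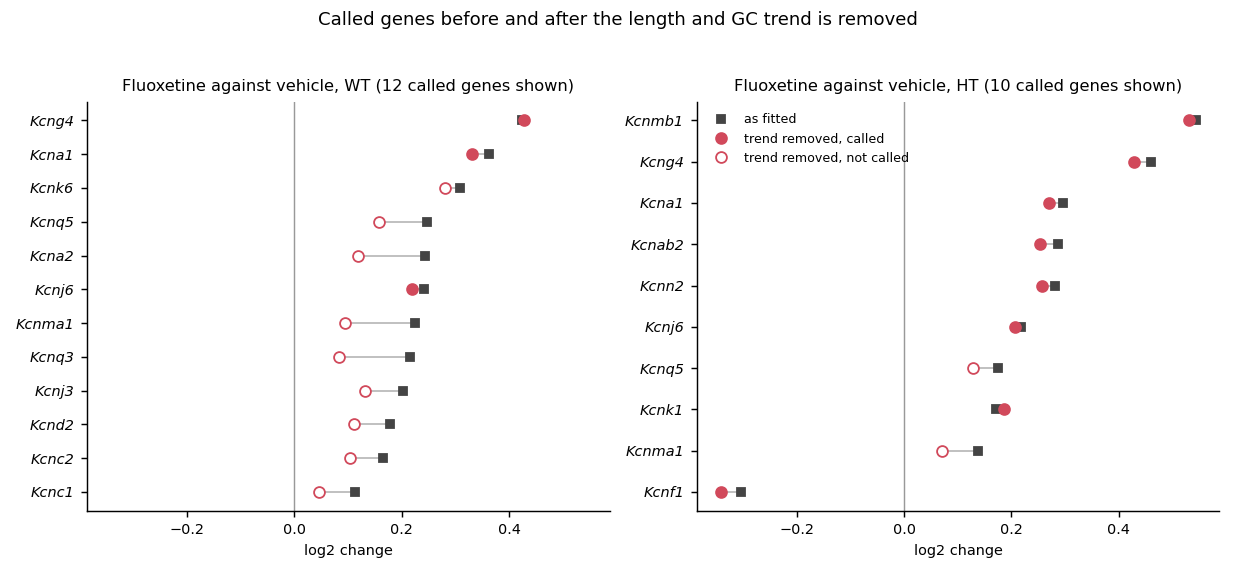
Log2 change with fluoxetine (x axis) of called members in WT (left, 12 genes shown) and HT (right, 10 genes shown). Squares give the change as fitted; circles give it after the trend on transcript length and GC content was removed from each library, filled where the gene was still called. In WT the circles of Kcng4, Kcna1 and Kcnj6 are filled and the other 9 are open.

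Some markers of other cell types were also called with fluoxetine. Of 5 blood cell genes 3 fell in WT (median of the list -0.57) and 4 in HT (-0.71). Of 12 excitatory neuron markers none was called in WT (median 0.14) and 2 rose in HT, and of 12 inhibitory neuron markers none was called (-0.07 and -0.16). Of 8 pericyte and smooth muscle markers 1 rose and 1 fell in WT, and 2 rose and 1 fell in HT. The olfactory bulb list had a median level of 0.292 in HT vehicle and -1.11 in HT fluoxetine, and of 0.635 and 0.601 in WT. The part of these lists in the channel values was not tested.

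With lithium in WT, 1 of 81 members was called (1.23%, against 2.22% of all genes, 1.33% higher and 0.892% lower) and in HT 8 were, all higher (9.88%, against 5.01% of all genes, 2.75% higher and 2.26% lower). The gene called in WT was Kcnc1, the Kv3 channel of fast-firing neurons (ENSMUSG00000058975, chromosome 7, 46396497 to 46438704). It ran from 5019 to 5816 (median 5416) in WT vehicle and from 5752 to 6482 (median 6103) in WT lithium, and from 5032 to 6040 (median 5424) in HT vehicle and from 5639 to 6355 (median 6143) in HT lithium. In WT 8 of 10 and in HT 6 of 10 lithium libraries lay above every vehicle library. The log2 change was 0.18 in WT (SE 0.03, 1.13-fold, adjusted p = 0.00195) and 0.17 in HT (SE 0.03, 1.13-fold, adjusted p = 0.0018), and both calls held in all 59 removals of 1 library and with the length and GC trend removed. Pvalb, the calcium buffer that marks fast-firing interneurons, rose with it: 622 to 931 with lithium in WT against 375 to 689 with vehicle (log2 change 0.46, SE 0.10, adjusted p = 0.0043), and 596 to 1000 against 421 to 703 in HT (0.43, SE 0.10, adjusted p = 0.0058). The other 11 inhibitory neuron markers were not called in either genotype. The part of Pvalb-positive cells in the Kcnc1 value was not tested.

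The other 7 called in HT came from 4 classes. Kcna1 rose from 1473 to 2181 (median 1876) to 1955 to 2595 (median 2361), with 9 of 10 lithium libraries above every vehicle library (log2 change 0.34, SE 0.09, adjusted p = 0.014). Kcng4 rose from 132 to 205 (median 164) to 190 to 240 (median 220), a log2 change of 0.42 (SE 0.09, adjusted p = 0.0028). Kcnip3 rose from 3314 to 4443 (median 4099) to 4442 to 5264 (median 4730), a log2 change of 0.24 (SE 0.07, adjusted p = 0.032), and 9 of 10 lithium libraries lay above the highest vehicle library. The remaining ones were Kcnma1 (0.17, SE 0.05, adjusted p = 0.035), the modifier Kcns2 (0.19, SE 0.06, adjusted p = 0.042), Kcnmb1 (0.53, SE 0.15, adjusted p = 0.026) and Kcnu1 (0.35, SE 0.09, adjusted p = 0.014), whose channel is known from sperm and which lay at 29.1 per kilobase here. Kcna1, Kcng4, Kcnma1 and Kcnmb1 were thus called in HT with both drugs, in comparisons that share the HT vehicle libraries. In WT with lithium, which had no call for them, Kcna1 had a log2 change of 0.18, Kcng4 0.17, Kcnma1 0.07 and Kcnmb1 0.07. For Kcnmb1 the HT vehicle level was itself lower than that of WT vehicle (log2 change -0.40, not called).

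The HT lithium count depended on single libraries. It was 15 without HT Fluoxetine female 2, which is in neither group and enters through the shared estimate of spread, and 15 with the compared groups fitted alone. It was 14 without HT Vehicle female 1, 4 without HT Vehicle female 3, and 5 without any 1 of HT Vehicle female 4, HT Vehicle male 5, HT Lithium female 2 and HT Lithium male 4. Kcna1, Kcng4, Kcnc1 and Kcnu1 kept their calls in all 59 removals, while Kcnip3 lost it in 5, Kcnmb1 in 3, Kcnma1 in 10 and Kcns2 in 11. With the length and GC trend removed, Kcnma1 (0.13, adjusted p = 0.0939) and Kcns2 (0.18, adjusted p = 0.0535) were not called.

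Whether a drug acted differently in the 2 genotypes was tested as the difference of its effects. No member was called for fluoxetine (0% of all genes) or lithium (0%), and 3 members had an unadjusted p under 0.05 in each, of 1291 and 1139 genes in all. The smallest p for fluoxetine belonged to Kcnmb1 (difference 0.70, SE 0.21, 95% interval 0.28 to 1.11, adjusted p = 0.50), which was called in HT and had a log2 change of -0.16 in WT. For Kcnc1, called in WT only, the difference was -0.10 (SE 0.05, interval -0.20 to -0.01, adjusted p = 0.65). For lithium the smallest p was that of the modifier Kcns3 (0.31, SE 0.14, adjusted p = 0.69), and for Kcng4 the difference was 0.24 (SE 0.12, adjusted p = 0.73). A call in one genotype and not in the other is therefore not shown to be a difference between them.

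Promoters of Kcnc1 and Kcng4 are shown as examples of genes that rose with fluoxetine in WT and with lithium in HT, as Kcna1 and Kcnma1 also did. They are the RefSeq sequences of GRCm38.p6 from 250 bases before to 50 after the start, read along the gene, with GC boxes (GGGCGG on either strand) in capitals.
Kcnc1, chr7:46396218-46396517, plus strand: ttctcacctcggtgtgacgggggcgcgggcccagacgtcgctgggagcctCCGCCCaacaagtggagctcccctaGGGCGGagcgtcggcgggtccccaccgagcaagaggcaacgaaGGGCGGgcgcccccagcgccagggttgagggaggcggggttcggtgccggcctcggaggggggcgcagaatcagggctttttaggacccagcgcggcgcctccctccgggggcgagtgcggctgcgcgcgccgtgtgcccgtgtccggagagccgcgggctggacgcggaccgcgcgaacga
Kcng4, chr8:119635631-119635930, minus strand: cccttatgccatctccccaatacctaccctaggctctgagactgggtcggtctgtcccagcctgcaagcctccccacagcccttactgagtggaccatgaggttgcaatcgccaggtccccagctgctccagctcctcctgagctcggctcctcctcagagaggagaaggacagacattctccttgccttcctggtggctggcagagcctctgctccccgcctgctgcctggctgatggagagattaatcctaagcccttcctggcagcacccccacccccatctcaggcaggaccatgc
The Kcnc1 stretch holds 3 GC boxes and the Kcng4 stretch none, while the Kcnma1 promoter, not shown, holds 3. Of the members, 68 had a promoter in this table, some more than 1, which made 93 promoters, and 48.4% of these held a GC box, against 35.7% of all 32851 promoters. The cyclic AMP response element TGACGTCA was in none of the 93 (1.79% of all), the E-box CACGTG in 7.53% (7.15%) and the TATA box TATAAA in 5.38% (13.6%), each sought on both strands. Overlaps of one motif with another were allowed. No match in these windows says nothing of a factor.

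Set directly against each other, the drugs differed in 21 members, 13 higher and 8 lower with fluoxetine (25.9%, against 29.3% of all genes). Higher with fluoxetine were, among others, Kcnj6 (0.22, SE 0.04, adjusted p = 3.3e-05), Kcnq3 (0.20), Kcnab2 (0.20), Kcnj3 (0.14), the two-pore genes Kcnk10 (0.20) and Kcnk6 (0.24), Kcnd2, Kcnq5, Kcnn2 and Kcnc2. Kcnj2, the Kir2.1 channel that holds the resting potential, was also higher (0.35, SE 0.08, adjusted p = 0.0011), with medians of 666 and 703 with fluoxetine and 443.9 and 549.6 with lithium in WT and HT. Neither drug alone moved it past the threshold against vehicle, whose medians were 576 and 658. Kcng2 was higher as well (0.50, SE 0.12, adjusted p = 0.0014), at 659 in HT Fluoxetine female 2 against at most 157 in the other 9 libraries of that group. Without this library its change was 0.38 (adjusted p = 0.00019).

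Lower with fluoxetine than with lithium were Kcnu1 (-0.32, SE 0.06, adjusted p = 6.7e-05), Kcnc1 (-0.11, SE 0.02, adjusted p = 0.00034), the acid-sensitive leak channel Kcnk3 (-0.22), Kcnab3 (-0.29), Kcnf1 (-0.25), and the inward rectifiers Kcnj4 (-0.18), Kcnj9 (-0.17) and Kcnj12 (-0.19). For 5 of these 8, HT Fluoxetine female 2 held a value far below its group: Kcnf1 1921, Kcnj4 1432, Kcnj9 2698, Kcnj12 138 and Kcnk3 283. Without it all 8 stayed called, with Kcnf1 at -0.17, Kcnj4 at -0.11, Kcnj9 at -0.13, Kcnj12 at -0.12 and Kcnk3 at -0.17. With the length and GC trend removed, 16 of the 21 calls held, and Kcnq5, Kcnc2, Kcnj4 and Kcnj12 were among those lost. The call of Kcnj12 was also lost in 7 of 59 removals of 1 library.

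Treated HT mice were also set against untreated WT mice, in comparisons that share the WT vehicle libraries with those above. HT fluoxetine had 19 members called, 14 higher and 5 lower (23.5%, against 18.8% of all genes, 9.05% higher and 9.8% lower). The 5 lower ones were Kcnf1 (-0.36, SE 0.10, adjusted p = 0.0075), Kcnk15 (-2.13, SE 0.61, adjusted p = 0.0097), Kcnj4 (-0.25, adjusted p = 0.031), the interneuron-enriched Kv4 partner Kcnip1 (-0.24, adjusted p = 0.038) and Kcnk13 (-0.35, adjusted p = 0.042). Kcnk15 ran from 0 to 25.7 (median 4.98) in HT fluoxetine and from 6.67 to 74.7 (median 21.4) in WT vehicle. The olfactory bulb list had medians of -1.11 and 0.635 in the same groups. Without the 4 libraries with the most members outside their group Kcnk15 was at -1.69 (adjusted p = 0.0405), and without the 4 libraries that stood apart it was not called (-1.51, adjusted p = 0.0934). Without HT Fluoxetine female 2 alone, Kcnf1 was at -0.20, Kcnj4 at -0.11 and Kcnip1 at -0.18, of which Kcnip1 was no longer called (adjusted p = 0.11).

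HT lithium had 7 members called against WT vehicle, 5 higher and 2 lower (8.64%, against 7.91% of all genes, 4.16% higher and 3.75% lower). The higher ones were Kcnc1 (0.17), Kcna1 (0.37), Kcnma1 (0.20), Kcng4 (0.32) and Kcnip3 (0.25). Kcnip3 ran from 4442 to 5264 in HT lithium and from 3435 to 4223 in WT vehicle (SE 0.07, adjusted p = 0.02). Lower were Kcne1l, a MinK-related β subunit on the X chromosome (-0.49, SE 0.13, adjusted p = 0.013), and the lipid- and stretch-sensitive leak channel Kcnk10 (-0.23, SE 0.07, adjusted p = 0.047), whose call was lost in 19 of 59 removals of 1 library. The count was 16 without HT Fluoxetine female 2 and 18 with the compared groups alone.

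Sex made no called difference in the members (0 of 81, against 2.1% of all genes, of which 1.3% were higher and 0.798% lower in males, with 16 members, 19.8%, at an unadjusted p under 0.05, against 19.0% of all genes). Closest to the threshold were the Kv4 gene Kcnd3, lower in males (-0.11, SE 0.03, adjusted p = 0.059), and the Kv4 partner Kcnip4 (0.12, SE 0.04, adjusted p = 0.081). Without WT Fluoxetine male 1 the count was 5, among them Kcnd3 (-0.13, adjusted p = 0.012) and Kcnip4 (0.13, adjusted p = 0.035). Removing any of several other single libraries also called Kcnd3. No member was called for a difference of its drug effect between the sexes (0% of all genes for either drug, with 9 members, 11.1%, at an unadjusted p under 0.05 for fluoxetine, against 12.7% of all genes, and 16, 19.8%, for lithium, against 14.8%). For Kcnab2 the fluoxetine effect in males minus that in females was -0.25 (SE 0.09, adjusted p = 0.26), -0.17 (SE 0.07, adjusted p = 0.277) without HT Fluoxetine female 2, and -0.09 (SE 0.06, adjusted p = 0.83) without the 4 libraries with the most members outside their group. For the Kv3 gene Kcnc4 the lithium effect differed by -0.34 (SE 0.09, adjusted p = 0.10), and without HT Fluoxetine female 2 it was called at the same size (adjusted p = 0.045). The slope on transcript length lay between 0.0003 and 0.064 in HT lithium females and between -0.068 and -0.023 in HT lithium males. In WT lithium the slopes of the sexes overlapped. The part of this slope in the sex differences was not tested.

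Members known from other cell types were also compared between groups and libraries. Kcnj10, the Kir4.1 channel with which astrocytes take up potassium, had group means from 5565 ± 607 (SD, n = 10) in WT vehicle to 6142 ± 452 (SD, n = 10) in HT lithium, and its partner Kcnj16 from 786 ± 59.4 (SD, n = 10) in WT vehicle to 881 ± 77.4 (SD, n = 10) in WT lithium. Kcnj8, the KATP pore of pericytes, had group means from 113 ± 22.0 (SD, n = 10) in WT lithium to 126 ± 17.1 (SD, n = 10) in HT vehicle. None of the 3 was called with a drug. Kcnj13 and Kcne2, known from the choroid plexus, were low except in 1 library. Kcne2 was at 5.03 or less in 58 libraries and at 329.8 in HT Fluoxetine female 2, and Kcnj13 was at 74.5 or less in 58 libraries and at 467 there. The choroid plexus list of markers was at 5.82 in this library and at 0.44 or less in the libraries of the other 5 groups, on the log2 scale about the mean.

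**Figure D5:**
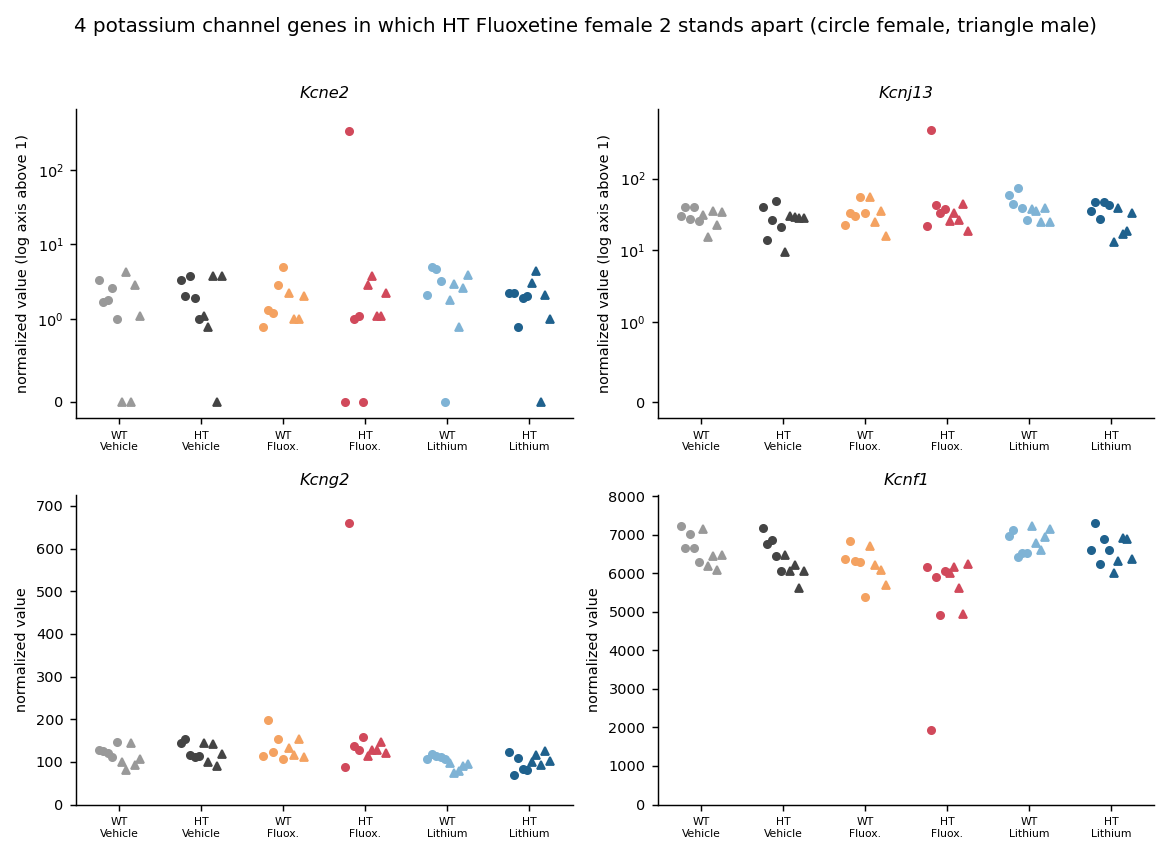
Normalized value of Kcne2, Kcnj13 (log axis above 1), Kcng2 and Kcnf1 (linear axis from 0) in every library, by genotype and drug group (x axis). Circles are females and triangles males. HT Fluoxetine female 2 is the lone high point for Kcne2 (329.8), Kcnj13 (467) and Kcng2 (659) and the lone low point for Kcnf1 (1921).

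Proteins that bind, cluster or resemble potassium channels but are not named Kcn formed a list of 32 genes, 30 of them tested. With fluoxetine 6 rose and 1 fell in WT, where 7% of all genes were called higher and 7.78% lower, and 8 rose and 1 fell in HT, against 6.63% higher and 7.38% lower. With lithium 1 fell in WT, against 0.892% of all genes lower, and 6 rose in HT, against 2.75% higher. Ank3, the ankyrin that holds Kv7 channels at the axon initial segment, rose with fluoxetine in WT (0.31, SE 0.04, adjusted p = 4.2e-07) and HT (0.25, SE 0.04, adjusted p = 1.5e-05). Vapa, a membrane-contact protein to which Kv2 channels bind, fell with fluoxetine in WT (-0.15, SE 0.04, adjusted p = 0.0023) and HT (-0.14, SE 0.03, adjusted p = 0.0047) and with lithium in WT (-0.14, SE 0.03, adjusted p = 0.015). Abcc9, the sulfonylurea receptor that joins Kcnj8 in pericytes, rose with fluoxetine in WT (0.24, SE 0.07, adjusted p = 0.0092) and HT (0.22, SE 0.07, adjusted p = 0.018), while Kcnj8 itself was not called. Adam22, a receptor of the Kv1-associated protein Lgi1, rose with fluoxetine in WT (0.27, SE 0.05, adjusted p = 3.9e-05). Cntnap1, a protein of the junctions beside the node of Ranvier, rose in HT with fluoxetine (0.20, SE 0.06, adjusted p = 0.016) and lithium (0.23, SE 0.06, adjusted p = 0.02).

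Over all 16 comparisons, 36 of the 81 tested members were called at least once and 45 in none. In the 4 comparisons of a drug with vehicle 23 were called at least once. The share of all genes called at least once is not given here, so these counts do not set the members apart. Fluoxetine against lithium alone called 29.3% of all genes. Among the 45 were the Kv10 to Kv12 genes and Kcnj10.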

How the data were processed

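RNA of the prefrontal cortex was read with a stranded messenger RNA kit, per the labels' protocols. The deposited table holds a normalized signal per gene and library, and the submitters' processing notes name Salmon 0.11.2, DESeq2 1.19.11, R 3.6.0 and GRCm38. The values are not whole numbers, and the low values of a library were whole multiples of 1 step (within 0.1 of a step) for 28.7% to 59.8% of them, so no count model was used. Depth in reads, the filters and the strand setting of the counting are not given in the sources used here.

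Genes with a mean of at least 10 were tested on log2(value + 1) with limma 3.58.1 in R 4.3.3 (trended, robust empirical Bayes, two-sided), with 12 means for genotype, drug and sex over 59 libraries and 47 residual degrees of freedom. A fold change on this scale understates the change of genes of low level. P-values were adjusted by Benjamini and Hochberg over 16919 genes in each of 16 comparisons, and a gene was called at an adjusted p under 0.05. The fit was tested on simulated data. Gene lengths and positions come from GENCODE M21, which matched 99.67% of identifiers. A list's level in a library is its mean deviation from the mean over libraries, in log2. Same-numbered replicates had correlations of deviations between -0.238 and 0.327, so the numbers were not taken to pair libraries.

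Members named are those called in any comparison, the 2 of highest level per kilobase in each class, up to 3 of smallest p where none was called, markers of other cell types and called partner genes. The members, the gene lists and the 4 libraries described as standing apart were chosen with earlier results of these data known, and the set of 4 libraries with the most members outside their group was chosen after seeing the data. Alternatives were other scalings, filters and pseudocounts, fits without sex, without the robust option, with the compared groups only or with a replicate block, removal of the length and GC trend, and leaving out libraries. Some genes are counted in the totals but not reported here.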

Additional observations from a re-analysis of the deposited data

Results flagged for a closer look

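In each genotype and drug group, the highest or lowest library was set against the others for 50 members, which made 300 tests. A library was marked where its gap to the nearest other one took up more of the group's range than Dixon's 95% limit. Chance marks about 1 in 20 groups, and 46 were marked, 19 of them in HT Fluoxetine female 2.

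In HT Fluoxetine female 2, 14 members were far below the other 9 libraries. Among voltage-gated channels these were Kcna2 at 7153, Kcnc4 at 1634 and Kcnh3 at 2265. Among modifiers they were Kcnf1 at 1921 (nearest other library 4906) and Kcnv1 at 1107 (nearest 3466). The inward rectifiers were Kcnj4 at 1432, Kcnj9 at 2698 and Kcnj12 at 138, and the two-pore channels Kcnk3 at 283 and Kcnk9 at 3643. The sodium-activated channel Kcnt1 was at 2487, and the Kv4 partners Kcnip1, Kcnip3 and Kcnip4 were at 536, 2385 and 1163. The 5 members far above the rest were Kcnab2 at 17805, Kcnn2 at 2000.4, Kcng2 at 659, Kcne2 at 329.8 and Kcnj13 at 467. This library also held the highest choroid plexus and dentate gyrus marker levels of all 59, and their part in these values was not tested.

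The other 27 were spread over 10 libraries. WT Fluoxetine male 1 had high values of Kcnab3 (2256), Kcnb2 (3020.4), Kcnd3 (3923), Kcnip1 (1218) and Kcnk15 (91.3) and a low value of Kcnab2 (8075). WT Lithium male 1 had high values of Kcnab3 (2452), Kcne1l (158) and Kcnj10 (7373) and low values of Kcnj9 (4498) and Kcnk1 (2372). Both libraries had the highest olfactory bulb marker level of their group, whose part was not tested. HT Vehicle female 1 had high values of Kcna2 (11987), Kcnd2 (3837), Kcnj12 (455), Kcnj3 (5297) and Kcnk3 (775) and a low value of Kcnn2 (835). WT Fluoxetine female 5 had high values of Kcnip3 (6216) and Kcne2 (5.03) and a low value of Kcnc1 (4810.0). HT Lithium male 2 had high values of Kcnh3 (6213) and Kcnj8 (180.3). Kcnip3 was high in HT Lithium male 4 (5264), Kcnj2 in WT Lithium female 4 (728) and Kcnk10 in HT Fluoxetine male 5 (504). Kcnip4 was low in HT Lithium female 5 (1508) and Kcnj4 in HT Vehicle female 4 (3552).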

How the results depend on the processing

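No member named in the text reversed its direction where it was called. Of the counts of members called, 206 stayed within 1.5 times the count reported under the alternatives other than leaving out 1 library, and 15 moved. With the length and GC trend removed, fluoxetine in WT had 3 and sex 2. With the compared groups only, genotype in lithium had 5, lithium in HT 15, HT lithium against WT vehicle 18 and the difference of lithium between the sexes 1. With no filter on low values, lithium in HT had 4. Without the 4 libraries that stood apart, genotype in lithium had 1, lithium in HT 18, HT lithium against WT vehicle 18, sex 1 and lithium by sex 1. Without the 4 libraries with the most members outside their group, these were 19 for lithium in HT, 12 for HT lithium against WT vehicle and 8 for sex. The causes were not tested. Leaving out each library in turn gave 0 to 1 for genotype in fluoxetine (1 without HT Fluoxetine female 1), 0 to 1 for genotype in lithium (1 without HT Fluoxetine female 2), 0 to 4 for genotype over all drugs, 11 to 20 for fluoxetine in WT, 9 to 16 for fluoxetine in HT, 1 to 2 for lithium in WT (2 without WT Lithium female 4), 4 to 15 for lithium in HT, 20 to 28 for fluoxetine against lithium, 14 to 21 for HT fluoxetine against WT vehicle, 6 to 16 for HT lithium against WT vehicle, 0 to 5 for sex and 0 to 1 for lithium by sex (1 without HT Fluoxetine female 2). Genotype in vehicle, fluoxetine by sex and the difference of either drug between genotypes stayed at 0. The replicate block gave 14 for fluoxetine in WT, 10 for fluoxetine in HT, 1 for lithium in WT, 8 for lithium in HT, 24 for fluoxetine against lithium, 19 for HT fluoxetine against WT vehicle, 6 for HT lithium against WT vehicle and 0 elsewhere. Depth in reads is unknown, which leaves the counting error of low members such as Kcnmb1 and Kcnk15 unknown.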
